A study of Mus musculus with 52 samples.

Results

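The promoters of genes in the TGF-beta, BMP and Nodal signalling pathways were examined in 4 conditional mouse embryonic stem cell (mESC) lines in which KDM2 proteins were altered with tamoxifen. KDM2A and KDM2B bind unmethylated CpG dinucleotides through a ZF-CxxC domain, and their long forms also carry a JmjC histone demethylase domain. The members were 51 genes listed by symbol, comprising ligands, extracellular regulators, receptors, Smads, nuclear co-repressors and the Id target genes. RefSeq identifiers mapped 56 promoters to 50 of these genes, out of 20633 promoters in each table, and Nodal was not analysed here. The set was chosen by its values in the Kdm2a/b-JmjC line, where Ski had the largest fall among the members, so the tamoxifen changes of that line are given as a description with no test.

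Chromatin accessibility was measured by calibrated ATAC-seq, in which Drosophila SG4 cells were added to the mESCs as a spike-in, and the comparison asked how accessibility at promoters differed after the KDM2 proteins were altered. Each line was compared before and after 800 nM 4-hydroxytamoxifen for 96 h, which activates the CreERT2 recombinase that the untreated cells carry too. The untreated cells of every line were fl/fl at the named gene or genes and received no tamoxifen. Tamoxifen removed the KDM2 long forms in the Kdm2a/b-JmjC fl/fl line, which leaves the short forms. It removed the ZF-CxxC domain of both proteins in Kdm2a/b-CXXC fl/fl cells, of KDM2A in Kdm2a-CXXC fl/fl cells and of KDM2B in Kdm2b-CXXC fl/fl cells. There were 3 untreated and 3 treated libraries per line, and 4 of each in Kdm2a/b-CXXC. The Kdm2a/b-JmjC cells were derived from mice carrying the alleles, whereas the Kdm2a-CXXC and Kdm2a/b-CXXC lines came from single CRISPR-edited clones, the second of them made in the Kdm2b-CXXC line. No untreated or treated line without floxed alleles was analysed here, so an effect of tamoxifen or of Cre itself cannot be told apart from that of the deletion. The tables hold promoters only, which lie outside the deleted exons, so they do not show whether each deletion occurred.

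Ligands of the TGF-beta superfamily bind pairs of serine/threonine kinase receptors at the cell surface. The activated receptors phosphorylate receptor-regulated Smads, which join Smad4 and act in the nucleus. Smad2 and Smad3 carry TGF-beta, activin and Nodal signals, while Smad1, Smad5 and Smad9 carry BMP signals. Smad6, Smad7 and the Smurf ubiquitin ligases limit the pathway, and Ski, Skil and Tgif1 are nuclear co-repressors that hold Smad complexes in check. In mESCs, BMP signalling maintains the Id genes and supports self-renewal, and Nodal signalling acts through the co-receptor Tdgf1 and is opposed by Lefty1 and Lefty2.

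Of the 56 member promoters, 40 (71.4%) were CpG-rich, against 54.6% of the 20630 promoters with sequence. CpG-rich intervals of 400 bp had a GC fraction of 0.5 or more. Their CpG frequency was 0.6 or more of that expected from base content. The RefSeq start site lies outside the interval for Id4, Inhba and Acvr2b, the last at -322 bp from the centre. The members held a median of 38.5 CpG dinucleotides, from 2 to 69, against 24 over all promoters. Upstream stretches of 6 promoters are printed here from the mm10 genome with RefSeq start sites, 5′ to 3′ on the strand of the gene, with each CpG in capitals. Each is the longest run outside annotated exons in the upstream part of the interval, which for Fst ends 38 bp before the start site and for the others at the base before it. Ski, Tgfb1 and Fst are shown for the largest falls in the Kdm2a/b-JmjC line, Bmp2 for its values in the Kdm2a-CXXC line, and Lefty1 and Tdgf1 as members of the Nodal branch that are not CpG-rich.
Ski, chr4:155222536-155222735, minus strand: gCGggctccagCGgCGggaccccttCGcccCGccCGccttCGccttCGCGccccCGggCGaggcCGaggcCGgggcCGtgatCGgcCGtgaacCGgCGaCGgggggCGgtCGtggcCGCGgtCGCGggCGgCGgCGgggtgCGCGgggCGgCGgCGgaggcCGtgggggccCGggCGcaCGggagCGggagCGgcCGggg
Tgfb1, chr7:25686802-25687001, plus strand: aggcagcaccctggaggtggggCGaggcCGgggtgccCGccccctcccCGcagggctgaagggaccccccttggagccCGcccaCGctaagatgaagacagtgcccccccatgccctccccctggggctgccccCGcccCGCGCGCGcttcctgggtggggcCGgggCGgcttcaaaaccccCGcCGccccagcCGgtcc
Fst, chr13:114458990-114459151, minus strand: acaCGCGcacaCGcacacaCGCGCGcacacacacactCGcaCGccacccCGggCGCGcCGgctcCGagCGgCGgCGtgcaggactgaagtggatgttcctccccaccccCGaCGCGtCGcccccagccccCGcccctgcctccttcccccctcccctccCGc
Bmp2, chr2:133551959-133552158, plus strand: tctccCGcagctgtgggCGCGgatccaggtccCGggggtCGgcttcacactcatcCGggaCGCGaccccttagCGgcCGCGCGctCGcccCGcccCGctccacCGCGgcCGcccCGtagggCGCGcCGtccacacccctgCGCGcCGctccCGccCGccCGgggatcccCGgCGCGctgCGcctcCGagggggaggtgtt
Lefty1, chr1:180934839-180935021, plus strand: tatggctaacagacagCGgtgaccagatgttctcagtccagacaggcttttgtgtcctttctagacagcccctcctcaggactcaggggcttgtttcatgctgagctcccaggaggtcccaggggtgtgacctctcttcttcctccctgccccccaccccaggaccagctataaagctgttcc
Tdgf1, chr9:110946159-110946358, minus strand: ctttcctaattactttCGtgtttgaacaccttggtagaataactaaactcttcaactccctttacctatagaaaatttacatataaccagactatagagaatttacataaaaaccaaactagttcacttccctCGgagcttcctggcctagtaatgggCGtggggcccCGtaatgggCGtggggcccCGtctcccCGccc
These stretches held 40 CpG dinucleotides for Ski, 33 for Bmp2, 22 for Fst, 16 for Tgfb1, 7 for Tdgf1 and 1 for Lefty1. The GC-rich motif GGCGCC, which reads the same on both strands, was present in 22 (39.3%) of the member intervals and in 23.8% of all promoters. Among CpG-rich promoters alone it was present in 55% of members and 38.5% of all. The Smad-box motif CAGACA, searched on both strands, was present in 13 (23.2%) of the members and 23% of all promoters, and the printed Lefty1 stretch holds it. These matches describe the letters in the interval and are not sites of Smad binding.

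Values are calibrated reads, which are the mouse reads in a 400 bp promoter divided by the size factor of the library from the spike-in, so that levels of different promoters are per equal length. The 26 libraries held 1.49 to 3.03 M reads in promoters, and the median promoter had 58 to 108 reads. The size factors ran from 0.718 to 1.41, and total calibrated signal varied most in the Kdm2b-CXXC line, by 27.3% (coefficient of variation) in untreated and 27.4% in treated libraries, against 3% in untreated Kdm2a/b-JmjC libraries. The median change over all tested promoters was not 0 on the calibrated scale, and stood at -0.21 on the log2 scale for Kdm2a/b-JmjC, 0.087 for Kdm2a/b-CXXC, -0.18 for Kdm2a-CXXC and 0.099 for Kdm2b-CXXC. In bulk libraries, fewer cells with an open promoter and less opening in each cell cannot be told apart. Marker genes were each taken at their most accessible promoter, which can raise the counts for genes with several promoters. Of these genes, 8 of 10 for pluripotent cells were above percentile 50 of untreated libraries, with a median percentile of 82.3, and 0 of 5 for fibroblasts, with a median of 33.2. The counts were 2 of 6 for primitive endoderm, 0 of 5 for mesoderm, 3 of 5 for neural cells and 3 of 5 for trophoblast, and no marker promoter was at 0 in all 26 libraries. The summed pluripotency promoters took 0.0653 to 0.0758% of the promoter signal in untreated and 0.0697 to 0.0799% in treated Kdm2a/b-JmjC libraries, and 0.066 to 0.0794% and 0.0649 to 0.07% in Kdm2a/b-CXXC. Their range was 0.0829 to 0.0866% in untreated and 0.082 to 0.0878% in treated Kdm2a-CXXC libraries, and 0.0737 to 0.0748% and 0.0709 to 0.0745% in Kdm2b-CXXC.

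In untreated cells the inhibitory Smad and Smurf genes, the Id genes and the signal-carrying Smads had higher median percentiles than the ligands, extracellular regulators and co-repressors. The median member sat at percentile 49.4 of all promoters over the 13 untreated libraries, with 9 members above the 75th and 4 below the 25th. By role, the median percentile was 72.3 for the inhibitory Smads and Smurf ligases (4 promoters), 71.6 for the Id genes (4), 66.2 for the receptor-regulated and common Smads (7), 51 for receptors and co-receptors (15), 48.5 for ligands (15), 42.3 for extracellular regulators (7) and 39.9 for nuclear co-repressors (4). The 40 CpG-rich members had a median percentile of 51.7, below the 70.7 of all 11262 CpG-rich promoters. The 16 other members had a median of 37.3, above the 21.7 of all other promoters.

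Smurf2, a ubiquitin ligase that targets Smads and receptors, was the most accessible member, at percentile 96.8 (92.9 to 98.7 over libraries). Tgfbr1, the type I TGF-beta receptor, led the receptors at percentile 87.2, and Skil led the co-repressors at percentile 85.1. Among the Smads that carry the signal, Smad1 stood at percentile 83.2 and the Smad2 promoter NM_010754 at 81.7, with ranges that overlapped. Id2 and Id3, dominant-negative helix-loop-helix factors, stood at percentiles 83.3 and 80.7, and their ranges overlapped. Id1 stood at percentile 62.5 and Id4 was the lowest of the Id genes at percentile 48.7, although the RefSeq start site of Id4 lies outside its interval, at -310 bp from the centre. Smurf1 and Smad6 were the lower inhibitors at percentiles 65.6 and 67.4, and their order differed between lines.

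At the low end, the alternative Smad2 promoter NM_001252481 stood at percentile 10.7, well under NM_010754. Tgif1 likewise had a promoter at percentile 39.8 and an alternative promoter, NM_001164077, at percentile 18.6. Inhba, which encodes an activin subunit, had the lowest median, percentile 7.03 with 1 to 12 reads, but the RefSeq start site lies outside its interval, at -2623 bp from the centre. Bmp5 held 3 to 15 reads at percentile 18.4. Bmp8a had the highest median of the ligands over all untreated libraries, percentile 67.7, but Gdf3 stood above it in Kdm2a/b-CXXC (77.6 against 63.8) and in Kdm2b-CXXC (67.9 against 60). Nog, a secreted BMP antagonist, was the highest extracellular regulator at percentile 59.3 and Lefty2 the lowest at percentile 29.7. The lowest receptor promoter was Bmpr1b NM_007560 at percentile 26.8.

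**Figure D1:**
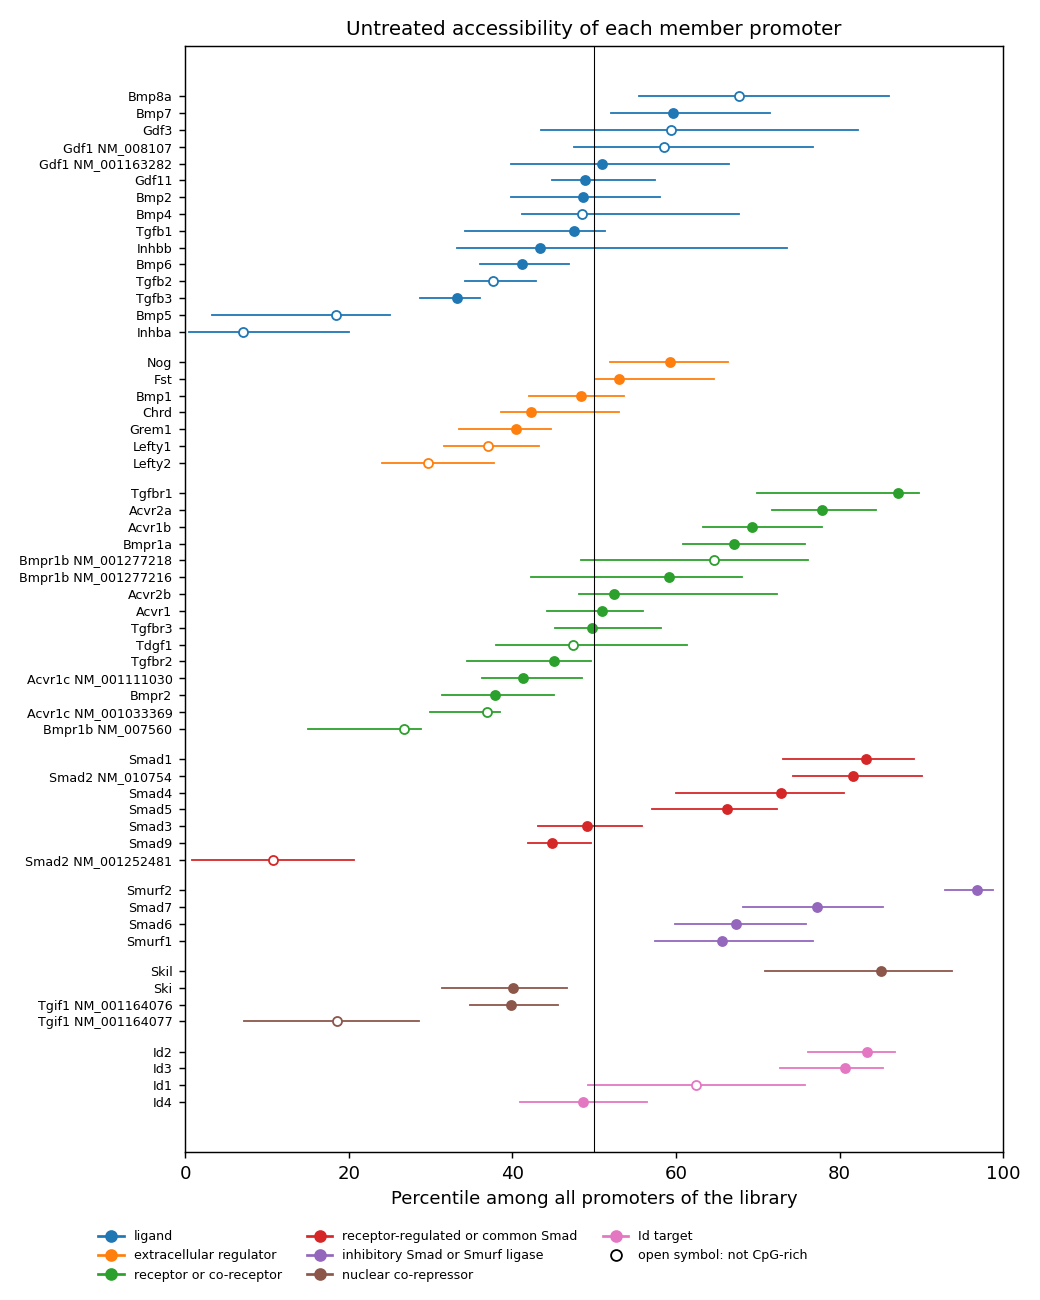
Percentile of each member promoter among all 20633 promoters of a library (x axis), by role, over the 13 untreated libraries. Circles are medians, lines run from the lowest to the highest library, and open circles mark promoters that are not CpG-rich; Smurf2 is highest at 96.8 and Inhba lowest at 7.03.

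The members with the widest gaps in percentile between untreated lines were 4 ligands, Inhbb, Gdf3, Bmp8a and Bmp4. Inhbb, an activin and inhibin subunit, had 156.7, 165.2 and 145.9 calibrated reads in the untreated Kdm2a-CXXC libraries and 83.0, 40.4 and 41.3 in those of Kdm2b-CXXC. As percentiles within each library these were 70.2 and 38.5 on average, with a lowest library of 64.8 in the first line and a highest of 42 in the second. Gdf3, a Nodal-related ligand expressed in pluripotent cells, stood at percentile 77.6 in untreated Kdm2a/b-CXXC cells and percentile 47.3 in Kdm2a/b-JmjC cells, and Bmp8a at percentile 83.6 in Kdm2a-CXXC and percentile 60 in Kdm2b-CXXC. Bmp4 stood at percentile 63.5 in Kdm2a-CXXC and percentile 45.2 in Kdm2a/b-JmjC. The median log2 ratio of the same shares over all promoters of the chromosome was 0.25 for Inhbb (against 1.53 for Inhbb itself), 0.15 for Gdf3 (against 1.21), -0.085 for Bmp8a (against 0.80) and -0.011 for Bmp4 (against 0.81). Percentiles and shares are taken within a library and do not depend on its size factor, whereas the calibrated reads do. The lines differ in origin and each has its own table, so line and any other difference between tables cannot be told apart. These gaps were not tested.

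In the Kdm2a/b-JmjC line, Ski had the largest decrease of any member after loss of the KDM2 long forms. Ski had 49.7, 61.6 and 56.8 calibrated reads in untreated and 37.4, 29.8 and 10.2 in treated cells. Every treated value was under every untreated value, and treated replicate 3 was the lowest of them. The recovered reads behind these values were 44, 68 and 62 untreated and 35, 38 and 10 treated. The mean was 56.1 ± 6.02 (SD, n = 3) untreated and 25.8 ± 14 (n = 3) treated, a log2 change of -1.26 on log2(calibrated reads + 1), or 0.416-fold. Without treated replicate 3 the change was -0.73. Among the 17174 promoters tested in this line, 0.181% had a lower log2 change than Ski.

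Skil, the close relative of Ski, had 123.1, 185.8 and 156.7 calibrated reads in untreated Kdm2a/b-JmjC cells and 134.5, 117.5 and 119.7 in treated cells, so its groups overlapped. The change of Skil was -0.31 on the log2 scale. The median change over all tested promoters was -0.21 in this line, and the change relative to that median was -1.05 for Ski and -0.096 for Skil.

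**Figure D2:**
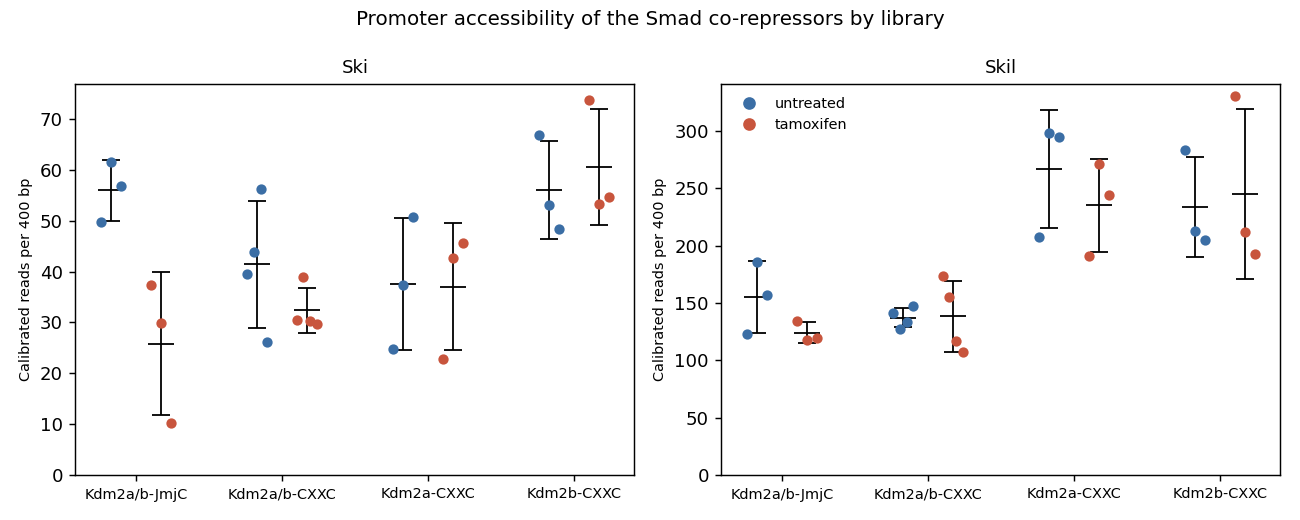
Calibrated reads per 400 bp promoter (y axis) for Ski and Skil in untreated (blue) and tamoxifen-treated (red) libraries of the 4 lines. Points are libraries and bars are the mean ± SD; in Kdm2a/b-JmjC the 3 treated Ski values lie between 10.2 and 37.4, below the 3 untreated ones, while the groups overlap in the other lines.

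The next members in order of decrease were Tgfb1 and Fst. Tgfb1, a founding ligand of the family, had 68.9, 77.1 and 64.2 calibrated reads untreated and 35.2, 43.8 and 56.3 treated, a log2 change of -0.64. Fst, which encodes the activin antagonist follistatin, had 76.8, 74.3 and 89.8 untreated and 72.6, 48.5 and 52.2 treated, a log2 change of -0.49. Relative to the median of all promoters these changes were -0.43 for Tgfb1 and -0.28 for Fst. In both genes the treated values were all under the untreated ones. Just behind Fst were Tgfbr3 at -0.48 and Acvr1c NM_001111030 at -0.47.

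Few members had a higher mean. Bmp5 had 15.8, 2.7 and 4.6 calibrated reads untreated and 13.9, 9.4 and 5.1 treated, a log2 change of 0.48 between groups that overlapped at very low depth. Tdgf1 had 66.6, 42.6 and 59.6 untreated and 58.7, 69.7 and 61.4 treated (0.19). Tgfb2 had 33.9, 41.7 and 42.2 untreated and 48.0, 39.9 and 38.9 treated (0.11). In all 3 the treated and untreated values overlapped, and leaving out 1 library moved each by over 1.5 times. Bmp5 ran from 0.019 without untreated replicate 2 to 1.107 without untreated replicate 1. Tdgf1 ran from 0.002 without untreated replicate 2 to 0.319 without untreated replicate 1, and Tgfb2 from 0.006 without untreated replicate 1 to 0.162 without treated replicate 3.

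Across the 53 members that passed the filter on low reads in Kdm2a/b-JmjC, 46 had a negative and 7 a positive change, with a median of -0.31 against -0.21 for all promoters, and 20 lay above the median of all promoters. With TMM scaling, which sets the median change of all promoters near 0, the split was 33 negative and 20 positive. By role the median change was -0.42 for nuclear co-repressors, -0.36 for inhibitory Smads and Smurfs, -0.35 for Id genes, -0.33 for extracellular regulators, -0.31 for receptors, -0.23 for the other Smads and -0.21 for ligands. Treated values were all under the untreated values at 17 of 56 members (30.4%), which included Id2, Id3, Smad5, Smad6, Smurf1, Smurf2 and Tgfbr1, and at 20.5% of all promoters. The reverse held at 0 members and 1.22% of all promoters. Smad7, which limits TGF-beta receptors, had a log2 change of 0.0034 on the calibrated scale. Of the 17174 promoters tested in this line, 83.8% had a lower change than Smad7. A change lower than that of Acvr1c NM_001033369 (-0.026) was found at 80.8%, so most promoters of the line had negative changes too. The 40 CpG-rich members had a median of -0.34 against -0.23 for all CpG-rich promoters, and the 13 other members -0.026 against -0.15.

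**Figure D3:**
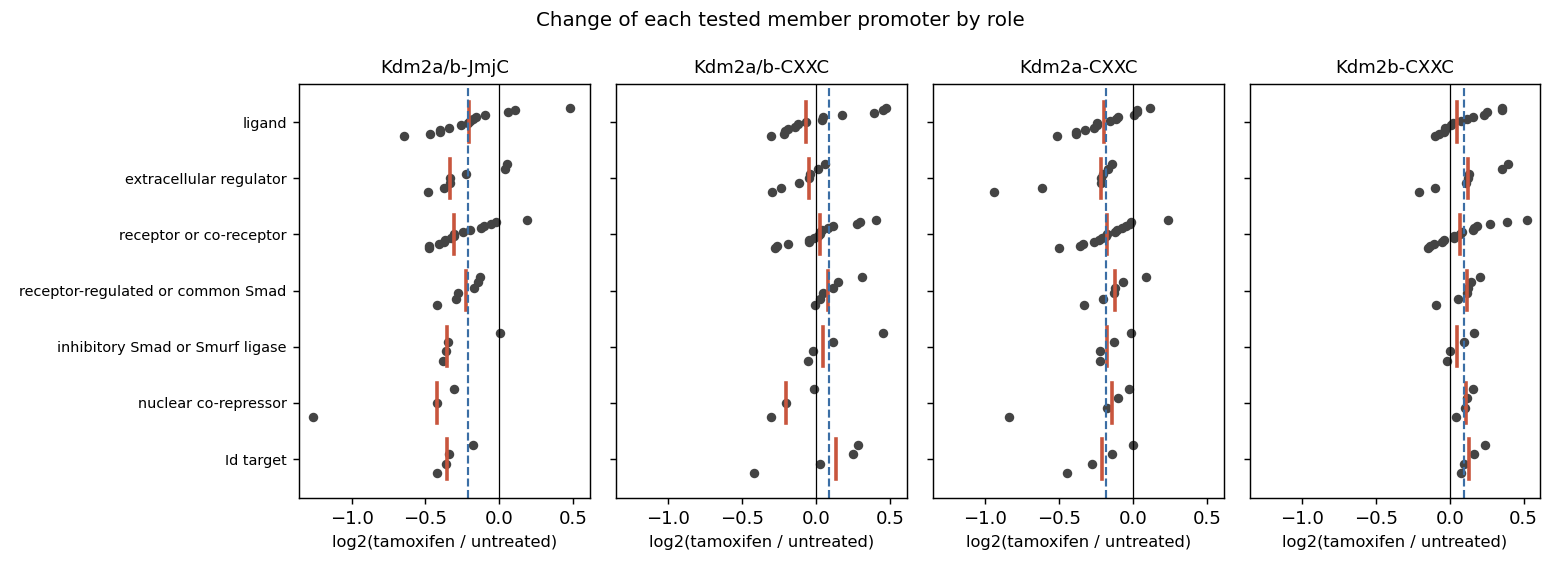
Log2 change of calibrated reads, tamoxifen over untreated (x axis), for each tested member promoter by role in the 4 lines. Points are promoters, red bars are role medians, and the dashed blue line is the median of all tested promoters in that line (-0.21, 0.087, -0.18 and 0.099 from left to right); Ski is the lowest point in Kdm2a/b-JmjC.

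The rule for the set named values of the Kdm2a/b-JmjC line only, but the members were listed with earlier results of these data known. In the 3 CXXC lines no member passed both parts of the threshold, a fold over 1.4 and an adjusted p (limma, Benjamini-Hochberg over all tested promoters) below 0.05. Neither did any other promoter (0% of 16413 tested for Kdm2a/b-CXXC, 17727 for Kdm2a-CXXC and 17930 for Kdm2b-CXXC). By edgeR and by DESeq2 with the same size factors the number was also 0 in each line, and with TMM scaling 0 members were called beside 0.104%, 0% and 0.00558% of all promoters. At an unadjusted p under 0.05 by limma there were 2 members of 52 tested for Kdm2a/b-CXXC, 5 of 54 for Kdm2a-CXXC and 0 of 54 for Kdm2b-CXXC, beside 764, 1488 and 120 of all promoters (4.65%, 8.39% and 0.669%). With TMM scaling these counts were 7 (2 higher and 5 lower), 1 (lower) and 1 (lower) members, beside 1595, 1096 and 1388 of all promoters. The 5 lower members in Kdm2a/b-CXXC were Id4, Nog, Gdf3, Gdf11 and Acvr2b, and the others were Bmp1 in Kdm2a-CXXC and Acvr2a in Kdm2b-CXXC. As shares of all promoters, the TMM counts were 4.75% higher and 4.97% lower for Kdm2a/b-CXXC, 2.93% and 3.25% for Kdm2a-CXXC, and 3.6% and 4.14% for Kdm2b-CXXC. The calibrated count of 5 members in Kdm2a-CXXC was 4 by edgeR and 2 by DESeq2, beside 8.25% and 6.73% of all promoters. By limma with the replicate number as a block it was 10, beside 22% of all promoters.

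The Ski promoter did not pass the threshold in any of the 3 CXXC lines. In Kdm2a/b-CXXC Ski had 39.5, 43.8, 56.2 and 26.1 calibrated reads untreated and 30.4, 39.0, 30.3 and 29.7 treated. The groups overlapped, and the log2 change was -0.31 (95% confidence interval -0.82 to 0.21, adjusted p = 0.996, limma). It ran from -0.145 without untreated replicate 3 to -0.504 without untreated replicate 4. In Kdm2a-CXXC it had 24.8, 37.3 and 50.7 untreated and 22.7, 42.6 and 45.7 treated, a log2 change of -0.029 (-0.60 to 0.54, adjusted p = 0.971, limma). In Kdm2b-CXXC it had 66.9, 53.1 and 48.3 untreated and 73.8, 53.2 and 54.7 treated, a log2 change of 0.11 (-0.62 to 0.84, adjusted p = 1.00, limma). Each interval includes 0. In Kdm2a-CXXC the sign of the Ski change turned with TMM scaling, to 0.145. The difference between the Kdm2a/b-JmjC line and the CXXC lines was not tested.

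In Kdm2a/b-CXXC cells, the members with the smallest unadjusted p were Smad6 and the Gdf1 promoter NM_001163282, both with higher means after tamoxifen. Smad6, which inhibits BMP signalling and is itself a BMP target, had 89.9, 112.6, 111.5 and 96.8 calibrated reads untreated and 180.2, 132.4, 144.8 and 112.3 treated. The groups overlapped only at treated replicate 4. The log2 change was 0.45 ± 0.19 (SE), with an unadjusted p of 0.0173 and an adjusted p of 0.996 by limma. The Gdf1 promoter had 62.2, 66.8, 41.2 and 59.1 untreated and 72.1, 96.8, 80.2 and 64.2 treated, and its groups overlapped only through treated replicate 4. The log2 change was 0.45 ± 0.22 (SE), with an unadjusted p of 0.0383 and an adjusted p of 0.996 by limma. This interval also holds the start site of Cers1, whose transcript carries the Gdf1 reading frame, so its reads cannot be assigned to either gene. Treated replicate 1, the highest for Smad6, also had the highest calibrated total of the 8 libraries, 2.04 M. Without it the log2 change was 0.334 for Smad6 (unadjusted p of 0.0467, limma) and 0.484 for Gdf1 (unadjusted p of 0.0162, limma). Leaving out other libraries took both members over 0.05. Smad6 had 0.392 without untreated replicate 1 (unadjusted p of 0.0701, limma). Gdf1 had 0.302 without untreated replicate 3 and 0.344 without treated replicate 2 (unadjusted p of 0.208 and 0.164, limma). Its unadjusted p was 0.0512 without untreated replicate 4 and 0.0705 without treated replicate 3 (limma).

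Of all promoters in Kdm2a/b-CXXC, 3.58% had an unadjusted p under 0.05 with a higher treated mean and 1.07% with a lower one. The members divided into 27 with a positive and 25 with a negative change, with a median of 0.011 against 0.087 for all promoters, and 15 of the 52 lay above the median of all promoters. With TMM scaling the split was 15 positive and 37 negative. Treated values all under the untreated ones, or all over them, occurred at 0 of 56 members, and at 0.645% and 1.95% of all promoters. The Id genes had log2 changes of 0.28 for Id1, 0.25 for Id2, 0.024 for Id3 and -0.42 for Id4, and none of them passed the test. The 3 tested co-repressor promoters had a median of -0.20.

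In Kdm2a-CXXC cells Bmp1 had the lowest p of any member in the 3 CXXC lines, and the 5 members at an unadjusted p under 0.05 had lower treated means, in a line where the median of all promoters was -0.18. With TMM scaling Bmp1 was the 1 member left under 0.05. The Bmp1 interval lies at chr14:70520061-70520460 on the minus strand, around the start site, and Bmp1 encodes a secreted metalloproteinase that processes procollagen and cleaves the BMP antagonist chordin. It had 84.1, 76.9 and 91.2 calibrated reads untreated and 36.6, 49.3 and 44.4 treated, so the groups did not overlap. The mean was 84.1 ± 7.14 (SD, n = 3) untreated and 43.5 ± 6.42 (n = 3) treated. The log2 change was -0.94 (95% confidence interval -1.42 to -0.47), with an unadjusted p of 9.46e-05 and an adjusted p of 0.419 by limma. With the replicate number as a block the adjusted p was 0.00647, and without treated replicate 3 it was 0.0495, both past the threshold, while over all alternatives it ran from 0.00647 to 0.999. The block called 188 of all 17727 promoters (1.06%), and the fit without treated replicate 3 called 43 of 18304 (0.235%). With TMM scaling the change of Bmp1 was -0.77. In Kdm2a/b-CXXC, where the ZF-CxxC domain of KDM2A was removed too, Bmp1 had a mean of 55.1 untreated and 54.9 treated. Its log2 change there was -0.051 (unadjusted p of 0.825, adjusted p of 0.996, limma).

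Bmp2, a BMP ligand, had 86, 111.2 and 114.5 calibrated reads in untreated Kdm2a-CXXC cells and 39.2, 80.3 and 118.0 in treated cells. Its groups overlapped, since treated replicate 3 was the highest of the 6 libraries. The log2 change was -0.51 (unadjusted p of 0.0199, adjusted p of 0.581, limma), and when each library was left out in turn it ran from -0.86 to -0.081, the latter without treated replicate 1. Acvr1, a type I receptor for BMPs, had 65.9, 89.1 and 91.2 untreated and 47.1, 61.0 and 64.7 treated. The treated values all lay below the untreated ones by a small margin, with a log2 change of -0.50 (unadjusted p of 0.0313, adjusted p of 0.581, limma). With TMM scaling the unadjusted p was 0.083 for Bmp2 and 0.09 for Acvr1 (limma). On the calibrated scale it was 0.0536 by edgeR and 0.17 by DESeq2 for Bmp2, and 0.0276 and 0.0438 for Acvr1. The remaining members at an unadjusted p under 0.05 were Bmp8a (-0.39) and Lefty1 (-0.61).

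Lower treated values at an unadjusted p under 0.05 were found at 8% of all promoters of the Kdm2a-CXXC line and higher ones at 0.395%, and the 5 members were 9.26% of the 54 tested. Treated values were all under the untreated ones at 5 members (8.93%), Bmp1, Acvr1, Inhbb, Acvr2b and Bmpr1b NM_001277216, and at 12.2% of all promoters, and all over them at 0 members and 1.46% of all promoters. The median change of members was -0.18, with 47 negative and 7 positive, against -0.18 for all promoters, and 28 of 54 lay above that median. With TMM scaling the split was 26 negative and 28 positive.

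**Figure D4:**
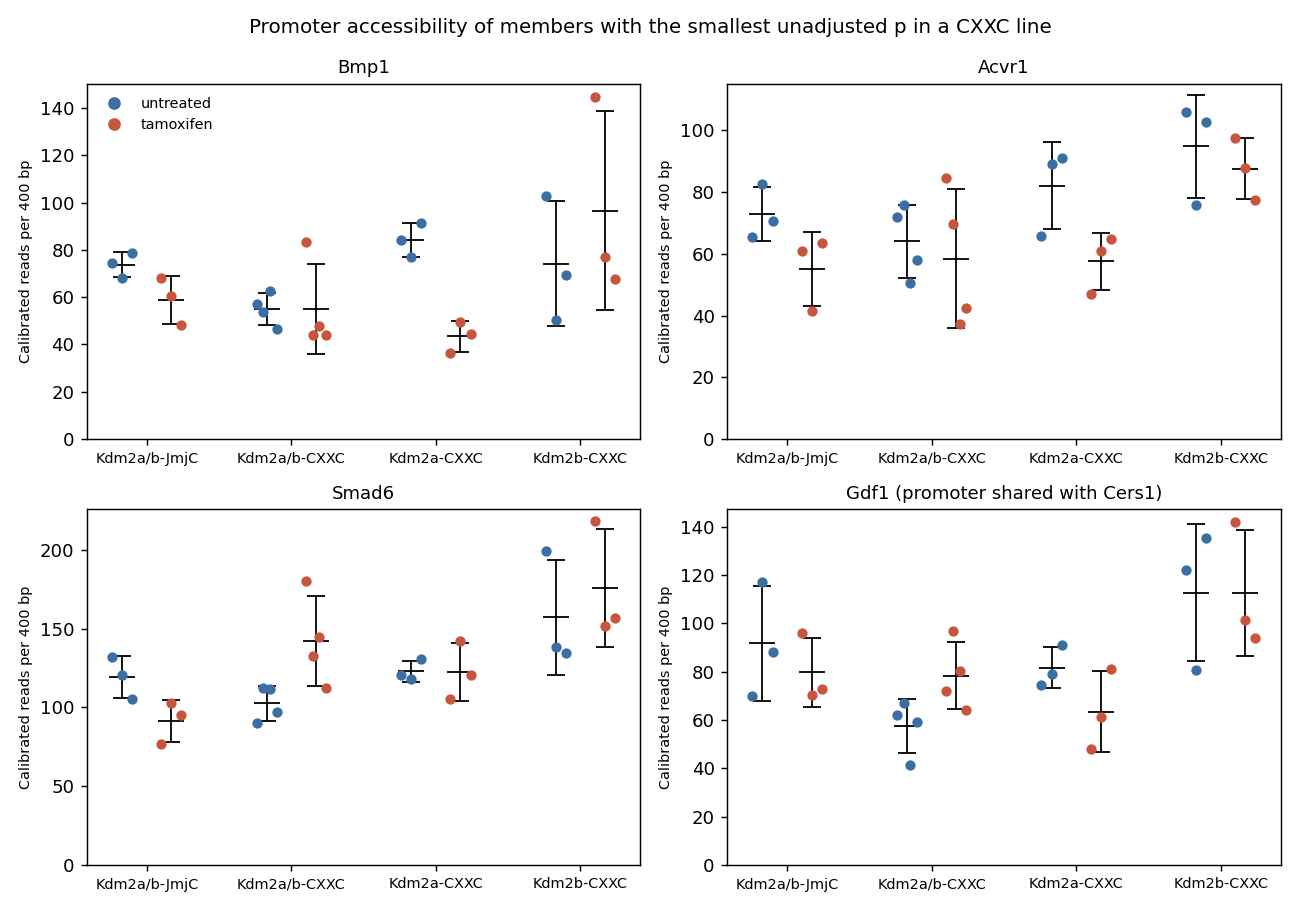
Calibrated reads per 400 bp promoter (y axis) of Bmp1, Acvr1, Smad6 and the Gdf1 promoter shared with Cers1 in untreated (blue) and tamoxifen-treated (red) libraries of the 4 lines. Bmp2 is not shown, although its unadjusted p in Kdm2a-CXXC was lower than that of Acvr1 (0.0199 against 0.0313, limma), and its groups overlapped. Points are libraries and bars are the mean ± SD; Bmp1 separates in Kdm2a-CXXC (36.6 to 49.3 treated, 76.9 to 91.2 untreated), and Smad6 and Gdf1 lie mostly higher after tamoxifen in Kdm2a/b-CXXC.

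In Kdm2b-CXXC cells the members had 39 positive and 15 negative changes (29 and 25 with TMM scaling), a median of 0.103 against 0.099, and 28 of 54 above the median of all promoters. The member with the smallest p was Bmpr2, the type II BMP receptor. It had 48.4, 26.9 and 49.2 calibrated reads untreated and 83.6, 36.5 and 48.2 treated, a log2 change of 0.39 (95% confidence interval -0.36 to 1.15, unadjusted p of 0.311, limma). It ran from 0.064 without treated replicate 1 to 0.651 without treated replicate 2, and was 0.112 without untreated replicate 2. Untreated and treated values overlapped, and the library with 83.6 had the highest total of the line, 3.19 M calibrated reads. Treated values all under the untreated ones, or all over them, occurred at 0 members, and at 0.616% and 2.65% of all promoters. Of all promoters, 0.519% had an unadjusted p under 0.05 with a higher and 0.151% with a lower treated mean. The median coefficient of variation of members between untreated libraries was 29.6% in this line, against 12.1% in Kdm2a/b-JmjC, and the interval for Bmpr2 spans changes of both signs.

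None of the ligands and regulators of the Nodal branch, nor Bmp4, passed the threshold in the CXXC lines. Lefty1, a Nodal antagonist and Nodal target, had 41.1, 28.2 and 45.6 calibrated reads in untreated Kdm2a-CXXC cells and 20.9, 21.3 and 31.7 in treated cells, with groups that overlapped. The log2 change was -0.61 (unadjusted p of 0.0491, adjusted p of 0.594, limma). Lefty2 had a log2 change of -0.21 in the same line, -0.040 in Kdm2a/b-CXXC and 0.39 in Kdm2b-CXXC, and Tdgf1 had -0.23, 0.28 and 0.033. Bmp4 had -0.24, 0.18 and -0.041 in these lines and Gdf3 -0.26, -0.19 and 0.024.

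The tamoxifen changes of the CXXC lines were then compared with each other in a fit of all 20 libraries. No member and no other promoter passed the threshold in any of the 3 differences (0% of 19266 tested in each). At an unadjusted p under 0.05 there were 2 of 56 members between Kdm2a/b-CXXC and Kdm2a-CXXC, 0 between Kdm2a/b-CXXC and Kdm2b-CXXC, and 2 between Kdm2a-CXXC and Kdm2b-CXXC, beside 737, 225 and 542 of all promoters. With TMM scaling the members were 3, 1 and 2, beside 1304, 969 and 876 of all promoters (6.77%, 5.03% and 4.55%). The lowest p was for Bmp1, whose log2 change was lower in Kdm2a-CXXC than in Kdm2b-CXXC (difference -1.3 ± 0.41 SE, unadjusted p of 0.00145, adjusted p of 0.901, limma). The Bmp1 libraries of Kdm2b-CXXC had 102.6, 50.3 and 69.4 calibrated reads untreated and 144.8, 76.9 and 67.8 treated, which overlapped. Bmp1 and Gdf1 NM_001163282 were the 2 members between Kdm2a/b-CXXC and Kdm2a-CXXC. For Bmp1 that difference was 0.892 ± 0.381 SE (unadjusted p of 0.0192, adjusted p of 0.846, limma).

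Other genes of the pathway that are not members, such as additional BMP and GDF ligands, latent TGF-beta binding proteins and Smad partners, were listed separately. The list held 56 genes with 63 promoters. None of them was called, out of 56 tested for Kdm2a/b-CXXC, 56 for Kdm2a-CXXC and 57 for Kdm2b-CXXC. At an unadjusted p under 0.05 by limma there were 2 higher and 1 lower in Kdm2a/b-CXXC, 0 higher and 3 lower in Kdm2a-CXXC and 0 in Kdm2b-CXXC, where all promoters had 4.65%, 8.39% and 0.669%. With TMM scaling the counts were 2 higher and 6 lower, 0 higher and 3 lower, and 1 higher and 0 lower. Their median changes were 0.027, -0.20 and 0.10. In Kdm2a/b-JmjC, described with no test, 48 of the 57 had a negative and 9 a positive change, with a median of -0.25 against -0.21 for all promoters, and with TMM scaling 31 were negative and 26 positive, with a median of -0.04.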

How the data were processed

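Nuclei of mESCs mixed with Drosophila SG4 cells were tagmented and sequenced, with 26 ATAC libraries and 26 input gDNA libraries, the latter not analysed here. The authors aligned reads to mm10 and dm6 with Bowtie 2, removed multiply mapped reads and PCR duplicates with SAMtools, and deposited signal: mouse reads per promoter divided by DESeq2 size factors from Drosophila reads corrected for the mixing ratio in gDNA. The tables also hold the authors' own fold changes, errors and p-values, which were not used. Dividing out the step of each column gave whole reads (within 0.01) for 100% of values in all 26 libraries. No 2 libraries were identical, and 99.1% of RefSeq identifiers matched a symbol in the GRCm38 annotation, the same build.

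Untreated and treated libraries were compared within each line with limma 3.58.1 (R 4.3.3, mean-variance trend, two-sided) on log2(calibrated reads + 1), after edgeR filterByExpr on the reads. A fold change is on that scale and understates the change of low promoters. Calls needed an adjusted p under 0.05 over all tested promoters and a fold change over 1.4. edgeR 4.0.16, DESeq2 1.42.0, other scalings, pseudocounts, no filter, the replicate block and leaving out each library were alternatives. The tests were also run on simulated reads, but the outcome is not given here and no result rests on it. Libraries were described as biological replicates. All members may be named. Values in every library are given for Ski, for up to 3 tested members with the smallest unadjusted p in each direction per CXXC line, and for the 3 largest falls and rises in Kdm2a/b-JmjC. Members and lists were chosen with earlier results of these data known.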

Additional observations from a re-analysis of the deposited data

Results flagged for a closer look

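In groups of 4 libraries, which occur only in Kdm2a/b-CXXC, 12 groups of members printed library by library were checked for a library far from the rest, and chance flags about 1 in 20 such groups. Ski in treated Kdm2a/b-CXXC cells had 39.0 calibrated reads in replicate 2 against 29.7 to 30.4 in the others, and its gap was 0.924 of the range of the group, over Dixon's critical value at the 95% level. Bmp1 in the same treated cells had 83.3 in replicate 1 against 44.1 to 47.9 in the others, a gap of 0.903 of the range. Replicate 1 also had the lowest size factor and the highest calibrated total of the line.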

How the results depend on the processing

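No member was called in Kdm2a/b-CXXC or Kdm2b-CXXC under any alternative run, including the replicate block (0 and 0 calls). In Kdm2a-CXXC there was 1 call, Bmp1, with the replicate block and without treated replicate 3, and leaving out each library gave 0 to 1. No member was called for the differences between lines under TMM scaling or when leaving out any library. Over all promoters, the replicate block gave 188 calls in Kdm2a-CXXC and 5 in Kdm2b-CXXC in place of 0, and TMM scaling gave 17 in Kdm2a/b-CXXC and 1 in Kdm2b-CXXC, of which 0 were members. Leaving out 1 library gave 43 calls in Kdm2a-CXXC (without treated replicate 3) and 5 and 8 in Kdm2a/b-CXXC (without treated replicates 1 and 4). Libraries with the same replicate number had deviations that correlated across promoters by -0.009 to 0.0725. These values were under the 0.1 taken as the mark of pairing, and the fits without the block were kept. The correlation leaves out any shift common to all promoters of a library, so it cannot show or exclude pairing of that kind. The calibrated totals had the same order by number in untreated and treated libraries of Kdm2a-CXXC and Kdm2b-CXXC, where the block raised the share of promoters at an unadjusted p under 0.05 from 8.39% to 22% and from 0.669% to 9.96%. Whether the numbers mark shared preparations is not given in the sources used here. In Kdm2a/b-JmjC all 6 libraries correlated best with their own number, in the other lines 4 of 8, 4 of 6 and 2 of 6.

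The median change of members was -0.0965 with TMM and -0.0944 with median-of-ratios scaling in Kdm2a/b-JmjC, and 0.0017 and 0.0036 in Kdm2a-CXXC, which by construction set the median of all promoters near 0. Leaving out each library gave medians of -0.3216 to -0.2197 in Kdm2a/b-JmjC, -0.1094 to 0.0896 in Kdm2a/b-CXXC, -0.2738 to -0.0605 in Kdm2a-CXXC and -0.0927 to 0.2983 in Kdm2b-CXXC. Ski in Kdm2a-CXXC changed sign to 0.145 with TMM and 0.147 with median-of-ratios scaling, and ran from -0.29 to 0.281 when leaving out each library. In Kdm2b-CXXC it ran from -0.041 to 0.238. The share of CpG-rich members was 67.9% under the stricter definition. Ski rested on 10 to 75 reads in each library.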
